A study of Mus musculus with 8 samples.

Results

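Hepatocytes take up and release amino acids through membrane carriers of several solute carrier (SLC) families, and the genes of 7 of these families were described here in mouse hepatocytes with raised Trib3. Members were all genes of the deposited table whose symbol is a numbered gene of Slc1a, Slc3a, Slc6a, Slc7a, Slc36a, Slc38a or Slc43a, which gave 60 of 34745 genes. Of these, 18 were Slc6a, 15 Slc7a, 11 Slc38a, 7 Slc1a, 4 Slc36a, 3 Slc43a and 2 Slc3a genes. Primary hepatocytes came from male wild-type mice that received adeno-associated virus of serotype 8 at 6 weeks of age, and cells were isolated 4 weeks later. The insert was mouse Trib3 in 4 libraries (AAV-Trib3) and, in the 4 control libraries, GFP (AAV-GFP). The sources used here give neither the mouse strain nor the promoter of either insert. Whether the numbered libraries of a group stem from different mice is not stated, so p-values measure only the spread between these libraries, which may be technical. Poly(A)-selected RNA was sequenced to total counts between 11350442 and 15361128 per library.

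Amino acid carriers are grouped by how they are driven. Slc38 and many Slc1 and Slc6 carriers couple uptake to the sodium gradient, and Slc36 carriers such as Slc36a1 to protons. Slc43 carriers and the cationic carriers of Slc7 work without such coupling. Most of the remaining Slc7 proteins are light subunits of exchangers that reach the membrane only when bound to a heavy subunit, Slc3a1 or Slc3a2. Several of these genes are targets of ATF4, the transcription factor of the amino acid response, and Trib3 is itself an ATF4 target whose product is known to bind ATF4 and AKT.

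Trib3 was 18.1-fold higher in AAV-Trib3, with every AAV-Trib3 library above every control (edgeR adjusted p = 0.0675, DESeq2 adjusted p = 2.22e-17). Its level in AAV-Trib3 replicates 1 to 4 was 27.9, 62.6, 67.2 and 20.2 CPM (counts per library total, adjusted for composition with TMM factors), and it was 1.10 to 3.36 CPM in AAV-GFP. All 8 hepatocyte markers examined, among them Alb and Hnf4a, were above the low-count filter, and 7 of them had a log2 fold change below 0. They summed to 70713 to 139488 CPM in AAV-GFP, highest in replicate 2, and to 66483 to 110931 CPM in AAV-Trib3. Markers of other liver cells were low: those of macrophages and Kupffer cells summed to 8.52 to 75.5 CPM in AAV-GFP and 10.3 to 96.5 CPM in AAV-Trib3, against at least 66483 CPM for the hepatocyte markers. Sinusoidal endothelial markers summed to 16.2 to 84.8 CPM in AAV-GFP and 39.9 to 62.5 CPM in AAV-Trib3, and those of stellate cells and fibroblasts to 3.97 to 29.9 and 14.3 to 17.4 CPM. The 6 cholangiocyte markers summed to 7.80 to 10.9 CPM in AAV-GFP and 7.11 to 28.1 CPM in AAV-Trib3, and both that passed the filter had a log2 fold change above 0. The 8 lymphocyte and neutrophil markers summed to 0.650 to 4.45 CPM in AAV-GFP and 0.880 to 5.73 CPM in AAV-Trib3. In each of these last lists 1 marker, Cftr and Ms4a1, was at 0 in all libraries. The 4 red cell markers summed to 66.9 to 112 CPM in AAV-GFP and 83.1 to 132 CPM in AAV-Trib3. Mitochondrially encoded transcripts took 32.0% of counts in AAV-GFP replicate 2 and 14.9% to 18.5% in the other libraries. In RNA from whole cell preparations, fewer cells of a type and less RNA per cell cannot be told apart.

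Only a part of the transporter repertoire was found in these hepatocytes. No read was counted in any library for 20 of the 60 genes, a further 16 had at most 18 counts in a library and fell below the filter on low counts, and 24 were tested. The genes at 0 included the renal and intestinal carriers Slc6a18 and Slc6a19, the neuronal glycine carrier Slc6a5, the glutamate carrier Slc1a1 and the cationic carrier Slc7a3. A count of 0 allows a level of up to 0.183 to 0.301 CPM, depending on the library (3 counts of its TMM-adjusted total). These limits cover counting error only. The 24 genes that were tested passed a filter on counts and do not stand for all 60.

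**Figure D1:**
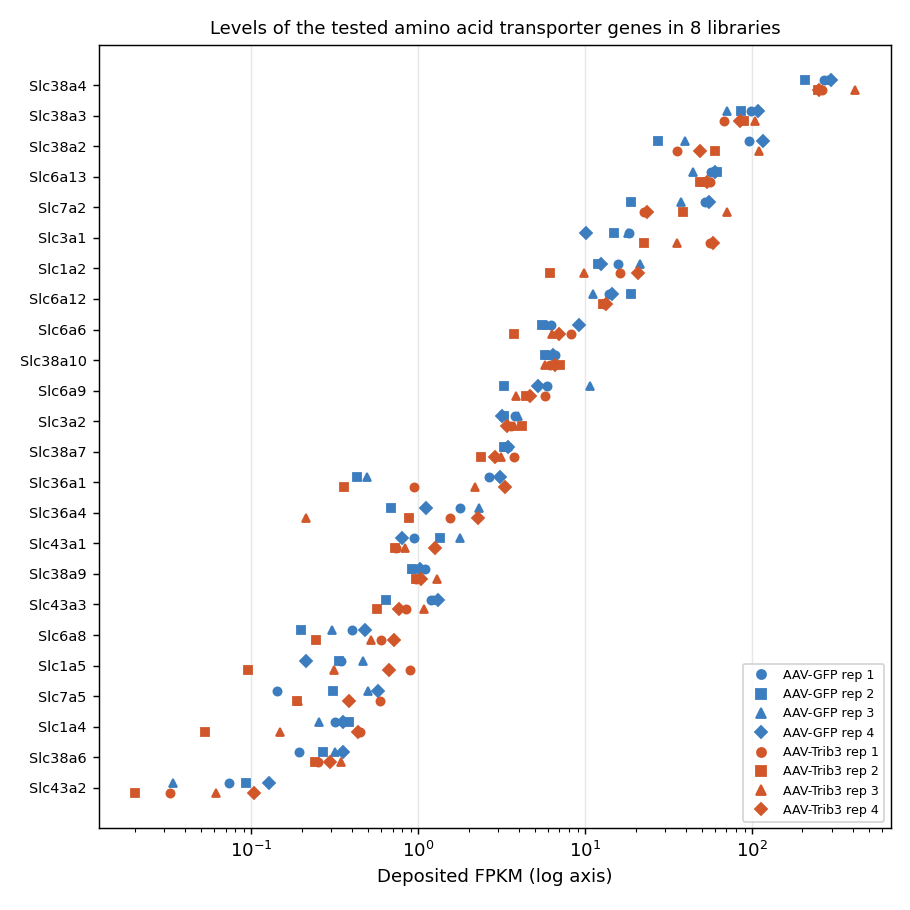
Deposited FPKM (counts scaled by gene length and library total, log axis) of the 24 tested amino acid transporter genes, 1 point per library, with AAV-GFP libraries in blue and AAV-Trib3 libraries in orange and the replicate given by the point's shape. Group means spanned from 293 FPKM for Slc38a4 in AAV-Trib3 to 0.0542 FPKM for Slc43a2 in AAV-Trib3, and the groups overlapped in 23 of 24 genes, with Slc3a1 as the exception.

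Per unit of gene length, sodium-coupled neutral carriers of the Slc38 family dominated. They made up 66.7% to 76.1% of the summed FPKM of all 60 genes in every library. Slc38a4, a carrier of neutral amino acids that is abundant in liver, was highest, at 265 ± 39 FPKM in AAV-GFP and 293 ± 78 FPKM in AAV-Trib3 (SD, n = 4). It was followed in AAV-GFP by Slc38a3 (90.6 ± 16.2 FPKM), a system N carrier of glutamine, histidine and asparagine, and by Slc38a2 (69.8 ± 43.0 FPKM), the inducible system A carrier. Next came Slc6a13 (55.6 ± 7.9 FPKM), which carries GABA and taurine, and Slc7a2 (40.8 ± 16.7 FPKM), the liver type of cationic amino acid carrier. In AAV-GFP the lowest library of Slc38a4 lay above the highest of Slc38a3. The ranges of Slc38a3, Slc38a2, Slc6a13 and Slc7a2 overlapped from each to the next. Slc38a3, at 70.6 to 108 FPKM, did not overlap Slc6a13 (44.1 to 61.5 FPKM) or Slc7a2 (18.7 to 55.5 FPKM). Within each AAV-GFP library, Slc38a2 and Slc6a13 also lay above Slc7a2. The order of Slc38a2 relative to Slc38a3 and to Slc6a13 is not resolved. Nor is that of Slc1a2, Slc3a1 and Slc6a12, which stood at 15.4 ± 4.3, 15.3 ± 3.8 and 14.6 ± 3.2 FPKM in AAV-GFP. The summed FPKM of the 60 genes was 602 ± 104 in AAV-GFP and 636 ± 133 in AAV-Trib3 (exact two-sided permutation test, p = 0.686).

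The comparison of AAV-Trib3 with AAV-GFP asked whether raised Trib3 goes with other levels of these transcripts. No transporter gene passed a Benjamini-Hochberg adjusted p of 0.05 in edgeR's quasi-likelihood test across all 11036 genes tested, and neither did any other gene (0 of 11036, 0.0%). DESeq2 called 7 genes (0.0634% of the 11036) and limma-voom 0, with no transporter gene among them. DESeq2 gave no adjusted p for Slc43a2 and Slc7a5, so it could not call these. At an unadjusted p under 0.05, edgeR listed 1 of 24 transporter genes, Slc3a1, against a background of 3.14% of all tested genes. The groups did not overlap in 1 of 24, again Slc3a1, against 2.29% of all tested genes. Both counts are close to the background shares. The median log2 fold change of the 24 genes was −0.15, with 6 above 0 and 18 below. Scaled by library size alone, 8 lay above 0, and without AAV-GFP replicate 2, 11 lay above 0 and 13 below. Over all tested genes the median was −0.01, and 47.9% lay above 0. The median standard error of a log2 fold change was 0.29 for the transporter genes and 0.22 for all tested genes.

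**Figure D2:**
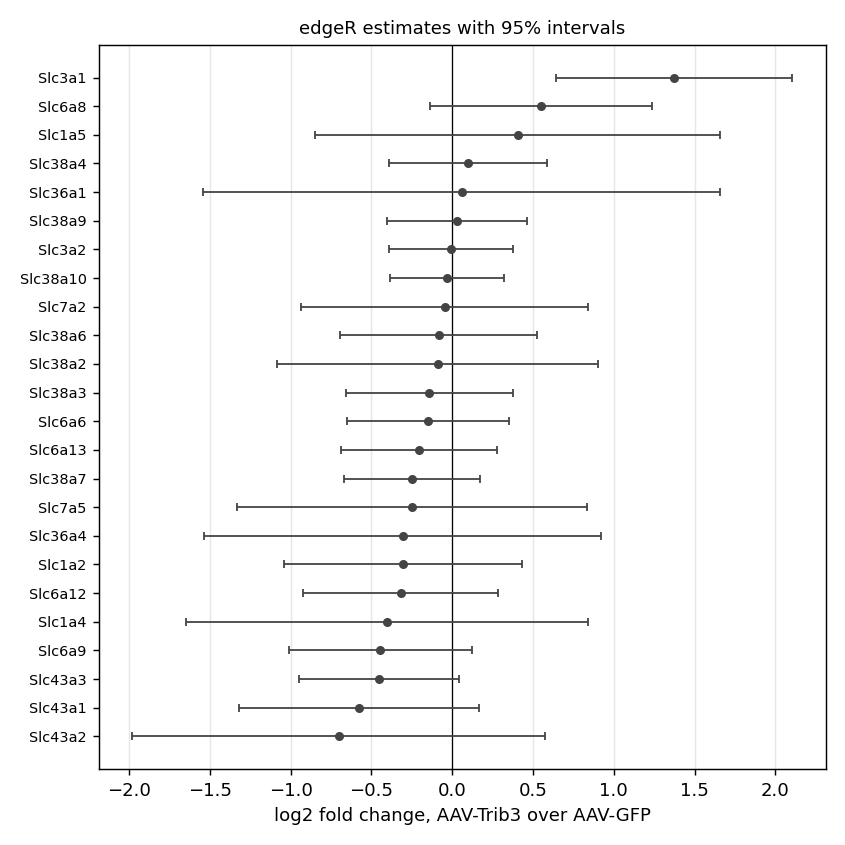
Log2 fold change of AAV-Trib3 over AAV-GFP for the 24 tested amino acid transporter genes, as points, with 95% intervals from the edgeR fit as bars. The interval of Slc3a1, from 0.65 to 2.11, lies above 0, and those of the other 23 genes include 0.

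Slc3a1 encodes rBAT, the heavy subunit of the exchanger that takes up cystine and cationic amino acids in kidney and intestine, and its loss in humans causes cystinuria. The gene (ENSMUSG00000024131) is protein-coding and lies on the plus strand of chromosome 17 (mm10, 85028347 to 85064243). Slc3a1 was measured at 40.0, 49.1, 38.8 and 20.2 CPM in AAV-GFP replicates 1 to 4 and 121, 52.3, 83.6 and 127 CPM in AAV-Trib3 replicates 1 to 4. Every AAV-Trib3 library lay above every AAV-GFP library, although AAV-Trib3 replicate 2 exceeded AAV-GFP replicate 2 by little. The means were 95.9 ± 34.8 and 37.0 ± 12.1 CPM (SD, n = 4), a 2.60-fold difference with a 95% interval of 1.56 to 4.31. The log2 fold change was 1.38 ± 0.33 (SE), with an unadjusted edgeR p of 0.00191, the 13th smallest of 11036, and an adjusted p of 1.00. DESeq2 gave an adjusted p of 0.0633, and the exact two-sided permutation p was 0.0286, the smallest that 4 against 4 libraries allow. With 1 library left out, the log2 fold change ran from 1.16 to 1.57, and the unadjusted edgeR p from 0.000544 to 0.00651.

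The level of Slc3a1 was uneven within AAV-Trib3, and other genes differed between the same libraries. Replicates 1 and 4, with the most Slc3a1, had the lowest Trib3 of their group. They also had 2155 and 2414 CPM of the acute phase gene Saa2, a serum amyloid, against 16.6 and 18.6 CPM in replicates 2 and 3 and 18.7 to 149 CPM in AAV-GFP. Macrophage and Kupffer cell markers summed to 96.5 and 60.9 CPM in AAV-Trib3 replicates 1 and 4 and to 10.3 and 22.4 CPM in replicates 2 and 3. In AAV-GFP these markers were highest in replicates 2 and 4, at 75.5 and 71.3 CPM, which held the highest and the lowest Slc3a1 of that group. All 11 of these markers were counted, 10 of them passed the filter, and 8 of those had a log2 fold change above 0. With the mean of the non-parenchymal markers as a covariate, the log2 fold change of Slc3a1 was 1.33. The part of Saa2 and of the acute phase in the level of Slc3a1 was not tested.

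Slc3a1 overlaps Prepl, a peptidase-like gene on the opposite strand, over 601 of its 2271 exonic bases in GENCODE M21. The ends of Slc3a1 in that release differ from those of the deposited table, so the overlap behind the counts may differ. The sources used here name no strand setting for the counts, so reads of the shared stretch could belong to either gene. Prepl stood at 18.9 ± 1.4 CPM in AAV-GFP and 18.7 ± 1.8 CPM in AAV-Trib3 (SD, n = 4), a log2 fold change of −0.02 ± 0.13 (SE). It had 172 to 335 counts per library, against 331 to 537 counts of Slc3a1 in AAV-GFP and 713 to 1989 in AAV-Trib3.

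**Figure D3:**
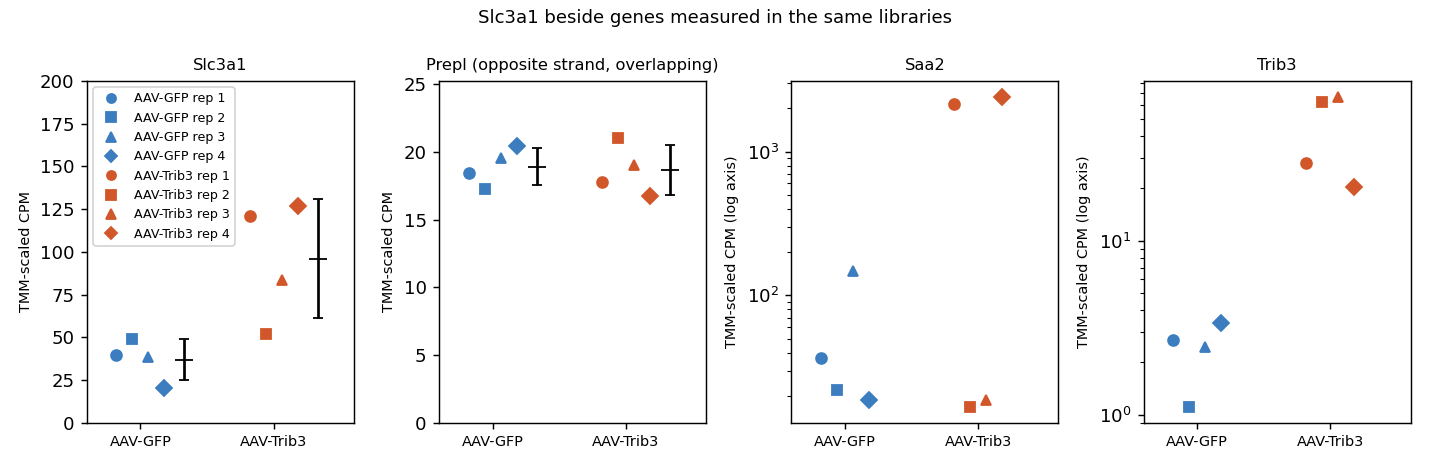
Slc3a1, its overlapping neighbour Prepl, the acute phase gene Saa2 and Trib3 by library, in CPM scaled with TMM factors (linear axes from 0 for Slc3a1 and Prepl, log axes for Saa2 and Trib3). Points are libraries, and the black bars of the first 2 panels are the mean and SD over 4 libraries. Slc3a1 was highest in AAV-Trib3 replicates 1 and 4, where Saa2 was also highest and Trib3 lowest within the group.

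The sequence before the start of Slc3a1 is shown because it was the transporter gene with the largest difference. It covers the 250 bases upstream of the start (RefSeq, GRCm38.p6, chr17:85028097-85028346, plus strand), and capitals mark matches to the AP-1 site TGAGTCA and to the TATA box TATAAA, 2 motifs chosen after the sequence had been read. The last stretch of capitals holds 2 overlapping TATAAA matches, 1 on each strand.
Slc3a1: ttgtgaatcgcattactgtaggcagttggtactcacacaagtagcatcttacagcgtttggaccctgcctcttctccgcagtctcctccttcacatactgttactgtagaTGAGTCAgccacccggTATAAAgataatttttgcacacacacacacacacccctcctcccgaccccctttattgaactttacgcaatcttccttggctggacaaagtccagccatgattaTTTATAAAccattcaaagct
Searched on both strands, TGAGTCA was in 5.20% and TATAAA in 13.6% of all 32851 promoter windows of 300 bases. By gene, the shares were 5.95% and 15.7%. Among the 42 transporter genes with a window, 5 held TGAGTCA and 6 held TATAAA. A match is a description of the letters only.

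The partners of Slc3a1 were not counted in these cells. Slc3a1 is known to pair with the light subunits Slc7a9 and Slc7a13, and both had 0 counts in all 8 libraries. The other heavy subunit, Slc3a2 (4F2hc or CD98), had 24.4 ± 5.1 CPM in AAV-GFP and 24.2 ± 3.1 CPM in AAV-Trib3 (SD, n = 4), and its log2 fold change of −0.01 ± 0.17 (SE) had a 95% interval of −0.39 to 0.38. In replicates 1 to 4 it was measured at 24.1, 30.8, 24.5 and 18.2 CPM in AAV-GFP and 22.3, 28.0, 25.5 and 21.1 CPM in AAV-Trib3, and the AAV-Trib3 libraries lay within the AAV-GFP range. On the FPKM scale, Slc3a1 was 3.19 to 4.78 times Slc3a2 in AAV-GFP libraries and 5.37 to 17.2 times in AAV-Trib3 libraries.

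Light subunits that pair with Slc3a2 were also scarce. Slc7a5 (LAT1), Slc7a6, Slc7a7, Slc7a8, Slc7a10 and Slc7a11 (the cystine-glutamate exchanger xCT) together had 13 to 65 counts in a library. Their summed FPKM came to 5.57% to 27.2% of that of Slc3a2. Of the 6, only Slc7a5 passed the filter, at 0.587, 1.91, 2.02 and 2.14 CPM in AAV-GFP and 2.38, 0.806, 0.839 and 1.55 CPM in AAV-Trib3, and the groups overlapped. Slc7a11 had at most 1 count in a library. Slc7a7 shares 232 exonic bases with Oxa1l on the opposite strand, so its 1 to 13 counts cannot be assigned with certainty. By replicate, the 6 genes had 13, 41, 32 and 54 counts in AAV-GFP and 65, 14, 24 and 47 in AAV-Trib3. Macrophage and Kupffer cell markers summed to 11.1, 75.5, 8.52 and 71.3 CPM and to 96.5, 10.3, 22.4 and 60.9 CPM in these libraries. Whether the few reads of the 6 genes came from hepatocytes was not tested.

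**Figure D4:**
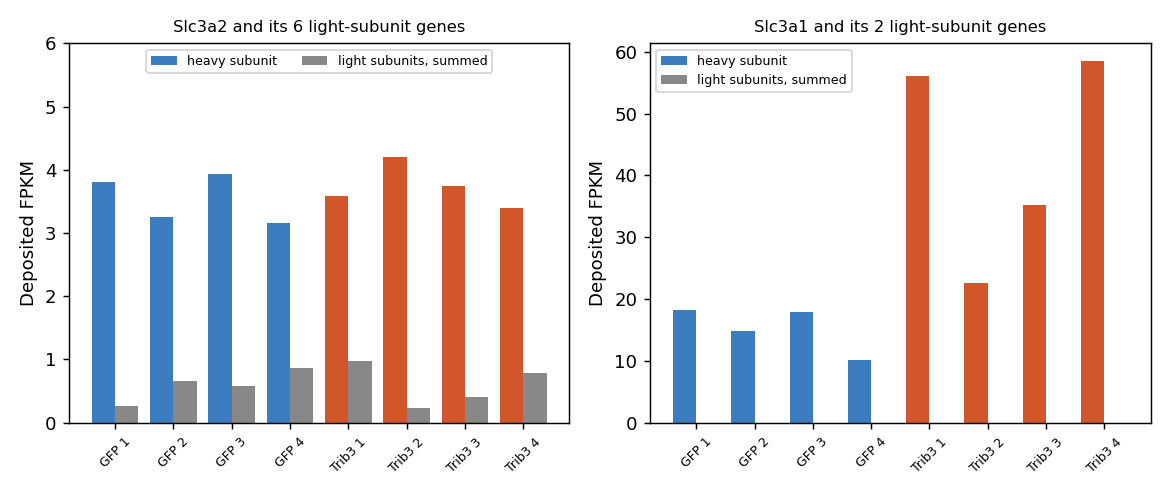
Deposited FPKM of the heavy subunits Slc3a2 (left) and Slc3a1 (right) by library, with AAV-GFP libraries in blue and AAV-Trib3 libraries in orange, beside the summed FPKM of their light-subunit genes in grey. Light-subunit genes of Slc3a2 stayed under 1 FPKM in sum, and those of Slc3a1 were at 0 in all 8 libraries.

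For the abundant neutral amino acid carriers of Slc38, the group means differed by less than the spread between libraries. Slc38a4 had 1102, 1277, 1136 and 1103 CPM in AAV-GFP and 1052, 1062, 1806 and 1015 CPM in AAV-Trib3. AAV-Trib3 replicate 3 stood apart, and the other 3 lay below the lowest AAV-GFP library. The log2 fold change was 0.10 ± 0.22 (SE), with an interval of −0.39 to 0.58, and −0.15 without that library. Slc38a3 had 1080.4, 1404, 762 and 1078 CPM in AAV-GFP and 734, 1037, 1227 and 919.9 CPM in AAV-Trib3, with a log2 fold change of −0.14 ± 0.23 that was 0.016 without AAV-GFP replicate 2.

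Slc38a2 is the system A carrier that cells induce on amino acid shortage. It had 422, 181, 172 and 467 CPM in AAV-GFP and 152, 279, 525 and 212 CPM in AAV-Trib3. The level thus differed within each group by more than the group means did (311 ± 156 against 292 ± 164 CPM), and the log2 fold change of −0.09 ± 0.44 had an interval of −1.08 to 0.91. Slc7a2, which carries arginine, lysine and ornithine, had 917, 497, 649 and 895 CPM in AAV-GFP and 390.0, 719, 1344 and 410.1 CPM in AAV-Trib3, and its log2 fold change was −0.05 ± 0.40. AAV-GFP replicates 1 and 4 and AAV-Trib3 replicate 3 were the 3 highest libraries for both genes. Without AAV-Trib3 replicate 3, the log2 fold changes were −0.53 for Slc38a2 and −0.55 for Slc7a2. Slc7a1, the cationic carrier of most other tissues, had 0 to 10 counts in a library.

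**Figure D5:**
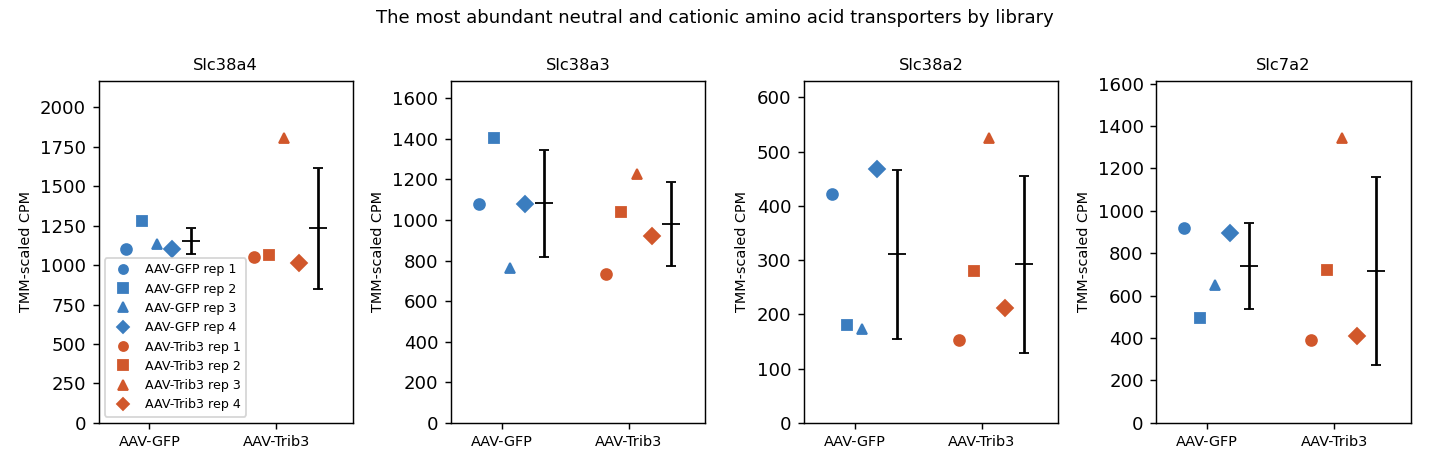
Slc38a4, Slc38a3, Slc38a2 and Slc7a2 by library, in CPM scaled with TMM factors on linear axes from 0. Points are libraries and black bars are the mean and SD over 4 libraries. AAV-Trib3 replicate 3 was the highest library for Slc38a4, Slc38a2 and Slc7a2, and the groups overlapped for all 4 genes.

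The remaining Slc38 genes were steadier or low. Slc38a10 had 81.1, 106, 71.8 and 71.5 CPM in AAV-GFP and 74.4, 91.6, 76.4 and 80.4 CPM in AAV-Trib3. Its log2 fold change of −0.03 ± 0.16 was the most precise of the 24 genes. The lysosomal Slc38a9, which signals arginine to mTORC1, had 9.14 ± 1.82 against 9.31 ± 1.75 CPM in AAV-GFP and AAV-Trib3. Slc38a7, a lysosomal glutamine carrier, had 15.1, 21.5, 14.2 and 13.7 CPM in AAV-GFP and 16.1, 10.9, 14.7 and 12.4 CPM in AAV-Trib3, which overlap. Slc38a6 had 3.36 ± 0.96 and 3.17 ± 0.62 CPM, and Slc38a1 and Slc38a5 had at most 9 and 4 counts in a library.

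Carriers of taurine, betaine, creatine and glycine belong to Slc6, and 5 of its 18 members were tested. Slc6a13 and Slc6a12, the betaine carrier, are neighbours on the plus strand of chromosome 6, at 121300227 to 121337733 and 121343076 to 121365775 in mm10. Slc6a13 had 181, 294, 138 and 175 CPM in AAV-GFP and 174, 164, 174 and 169 CPM in AAV-Trib3. Slc6a12 had 58.5, 119, 45.8 and 55.7 CPM in AAV-GFP and 53.7, 56.9, 58.2 and 54.8 CPM in AAV-Trib3. AAV-GFP replicate 2, the library with the high mitochondrial share, was the highest for both. The 4 AAV-Trib3 libraries lay within a coefficient of variation of 2.88% for Slc6a13 and 3.69% for Slc6a12, against 34.2% and 47.7% in AAV-GFP. Without AAV-GFP replicate 2, the latter were 13.9% and 12.5% (n = 3). These spreads are of TMM-scaled CPM and depend on the scaling. In FPKM, Slc6a13 had 55.6 ± 7.9 in AAV-GFP and 52.3 ± 3.1 in AAV-Trib3, and Slc6a12 had 14.6 ± 3.2 and 13.0 ± 0.18. The ratio of Slc6a13 to Slc6a12 in FPKM was between 3.26 and 4.28 in all 8 libraries. Log2 fold changes were −0.21 ± 0.22 and −0.32 ± 0.27 (SE), and 0.06 and 0.07 without AAV-GFP replicate 2. Scaled by library size alone, they were −0.089 and −0.17.

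Slc6a6, the taurine carrier, had 64.0, 85.0, 59.6 and 86.2 CPM in AAV-GFP and 83.3, 40.8, 70.2 and 71.2 CPM in AAV-Trib3, with its lowest level in AAV-Trib3 replicate 2. Slc6a9 (GlyT1), a glycine carrier, had 54.6, 45.6, 98.1 and 43.9 CPM in AAV-GFP and 52.7, 43.5, 38.7 and 43.0 CPM in AAV-Trib3. Its log2 fold change of −0.45 ± 0.25 was −0.11 without AAV-GFP replicate 3, the library at 98.1 CPM. Slc6a8, the creatine carrier, had 3.77, 2.81, 2.82 and 4.09 CPM in AAV-GFP and 5.48, 2.42, 5.26 and 6.62 CPM in AAV-Trib3. AAV-Trib3 replicate 2 was its lowest library and the other 3 were its highest. Its log2 fold change was 0.55 ± 0.31, and 0.77 without that library.

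Glutamate carriers were represented by Slc1a2 (GLT-1), which hepatocytes around the central vein are known to express together with glutamine synthetase (Glul). Slc1a2 had 225, 257, 300.5 and 163 CPM in AAV-GFP and 227, 93.0, 153 and 291 CPM in AAV-Trib3. Its log2 fold change was −0.31 ± 0.33, with an interval of −1.04 to 0.43, and it was −0.58 without AAV-Trib3 replicate 4 and −0.088 without AAV-Trib3 replicate 2. Within AAV-Trib3 it was lowest in replicate 2 and highest in replicate 4, and so was Glul, at 237 and 828 CPM in these libraries. Within AAV-GFP both were highest in replicate 3, but Slc1a2 was lowest in replicate 4 and Glul in replicate 1, at 513 CPM. The neutral exchangers Slc1a4 (ASCT1) and Slc1a5 (ASCT2) were low. Slc1a4 had 2.10, 3.82, 1.66 and 2.14 CPM in AAV-GFP and 2.92, 0.367, 1.07 and 2.84 CPM in AAV-Trib3. Slc1a5 had 2.26, 3.31, 3.03 and 1.28 CPM in AAV-GFP and 5.73, 0.660, 2.21 and 4.32 CPM in AAV-Trib3. For both, AAV-Trib3 replicates 1 and 4 were the high and replicate 2 the low libraries of the group. The summed macrophage and Kupffer cell markers had the same order in AAV-Trib3 (96.5, 10.3, 22.4 and 60.9 CPM). In AAV-GFP (11.1, 75.5, 8.52 and 71.3 CPM), Slc1a4 shared their order and Slc1a5 did not. Replicates 1 and 4 of AAV-GFP were nearly equal in Slc1a4, at 2.10 and 2.14 CPM (25 and 35 counts). With the non-parenchymal covariate, the log2 fold change of Slc1a4 went from −0.40 to −0.71 and that of Slc1a5 from 0.41 to 0.22. The cell source of these reads was not tested. The log2 fold change of Slc1a5, 0.41 ± 0.56, was −0.029 without AAV-Trib3 replicate 1 and 0.73 without replicate 2.

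Facilitated neutral carriers of Slc43 had log2 fold changes below 0 in 3 of 3 members, and none passed the test. Slc43a3, which is known mainly as a purine base carrier, had 7.13, 5.72, 7.29 and 7.20 CPM in AAV-GFP and 4.93, 3.59, 6.94 and 4.52 CPM in AAV-Trib3. The groups overlapped through AAV-Trib3 replicate 3 alone, and the log2 fold change was −0.46 ± 0.22 (unadjusted edgeR p = 0.0675; exact permutation p = 0.0571). Slc43a1 (LAT3), a carrier of branched-chain amino acids, had 7.96, 17.1, 14.7 and 6.10 CPM in AAV-GFP and 6.09, 6.45, 7.55 and 10.5 CPM in AAV-Trib3, and its log2 fold change of −0.58 ± 0.33 was −0.32 without AAV-GFP replicate 2. Slc43a2 (LAT4) had 1.26, 2.41, 0.578 and 2.01 CPM in AAV-GFP and 0.548, 0.367, 1.14 and 1.76 CPM in AAV-Trib3, from 5 to 33 counts a library. Slc36a1, a proton-coupled carrier of lysosomes, was the most variable of the 24 genes in both groups. It ran from 3.39 to 19.7 CPM in AAV-GFP and from 2.64 to 22.6 CPM in AAV-Trib3, with a coefficient of variation of 76.0% and 75.9%. Slc36a4 ran from 6.10 to 13.7 CPM and from 1.37 to 13.5 CPM.

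Of 9 transporter genes known as ATF4 targets, Slc1a4, Slc1a5, Slc3a2, Slc6a9, Slc7a5 and Slc38a2 were tested, and Slc7a1, Slc7a3 and Slc7a11 fell below the filter. None of the 6 had an unadjusted edgeR p under 0.05, 1 had a log2 fold change above 0 and 5 below, and their median was −0.17. Slc3a2, the closest to 0, lay above it with library size alone. Without AAV-Trib3 replicate 4, 3 of the 6 lay above 0 and 3 below. Among all tested genes, 47.9% lay above 0. Of 25 other genes of the amino acid response, 18 were tested, and none passed the adjusted threshold. Cars, a cysteinyl-tRNA synthetase, was the only one of them with an unadjusted edgeR p under 0.05, at 11.2 ± 2.1 CPM in AAV-Trib3 and 19.5 ± 3.3 CPM in AAV-GFP (SD, n = 4). Atf4 itself had 69.3 ± 8.9 against 68.3 ± 8.9 CPM, a log2 fold change of 0.02 ± 0.15. Asns, the asparagine synthetase, had 2.36 ± 1.30 against 5.51 ± 4.08 CPM. The median log2 fold change of the 18 was −0.13, with 6 above 0 and 12 below.

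The core of the amino acid response element, TGATGNAA, was searched on both strands of the RefSeq promoter windows (250 bases before to 50 after a gene's start). Windows were given for 42 of the 60 genes, and 3 of them held a match (Slc1a4, Slc7a7 and Slc7a11). Over all genes with a window the share was 4.51%. Of these, Slc1a4 is the ATF4 target that was also tested, so the stretch around its start is shown with the match in capitals, read on the opposite strand (GRCm38.p6, chr11:20332704-20332773, minus strand, 60 bases before to 10 after the start).
Slc1a4: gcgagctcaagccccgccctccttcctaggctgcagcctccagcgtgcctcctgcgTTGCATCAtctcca
The match begins 4 bases before the start and runs across it. Its presence says nothing on binding in these cells, and the levels of Slc1a4 in the groups overlapped.

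Amino acid carriers of other families and amino acid enzymes were examined beside these genes. Of 17 other carriers, such as the mitochondrial Slc25a13 and the lysosomal cystine carrier Ctns, 14 were tested, 7 with a log2 fold change above 0 and 7 below, and none had an unadjusted edgeR p under 0.05. Of 22 genes of amino acid handling, 21 were tested, 12 above 0 and 9 below. Among these, Gls2, the liver-type glutaminase, had an unadjusted edgeR p of 0.00196 (adjusted p = 1.00), at 221 ± 56 CPM in AAV-Trib3 and 129 ± 5 CPM in AAV-GFP (SD, n = 4). Gls2 and Slc3a1 differed in their order within AAV-Trib3: replicates 2 and 3, the lower for Slc3a1, were the higher for Gls2, at 245 and 287 CPM against 165 and 186 CPM.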

How the data were processed

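RNA-seq of primary mouse hepatocytes was analysed from 1 deposited table with, per the file headers, a count and an FPKM column per library. The deposited counts are raw whole numbers, and all tests used them. The deposited FPKM equal the counts scaled by library total and 1 length per gene, tested in the 5860 genes above 100 counts in every library, and served to compare levels between genes. They carry no composition factor, so AAV-GFP replicate 2, with the lowest TMM factor (0.699), reads lower in FPKM than in CPM relative to the other libraries. Per the submitters' processing notes, reads were trimmed with Trimmomatic and the genome build was mm10. The sources used here name no aligner, counter, annotation release or treatment of multi-mapped reads. Columns were matched to libraries by the code in each sample title.

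Genes were filtered with filterByExpr (11036 kept). AAV-Trib3 was compared with AAV-GFP by edgeR's quasi-likelihood F test (robust, TMM factors 0.699 to 1.15, no covariate) with Benjamini-Hochberg adjustment over all tested genes and a threshold of 0.05. Standard errors and 95% intervals were derived from the F statistic, and levels are TMM-scaled CPM with the SD over 4 libraries. Exact permutation tests on CPM or FPKM used the 70 relabellings. Scripts were tested on simulated data. Libraries of a group differed far beyond sampling noise (chi-square per degree of freedom 15.6 to 189), so none was treated as 1 library deposited more than once, which does not show that they come from separate mice. Software was R 4.3.3, edgeR 4.0.16, limma 3.58.1, DESeq2 1.42.0, Python 3.11.15 and matplotlib 3.10.9.

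The members and gene lists were chosen with earlier results of these data known. Values in every library are given for the 12 members with the highest mean FPKM, the 10 with the smallest unadjusted p and the tested ATF4 targets. Saa2 and Prepl and the motifs TGAGTCA and TATAAA were added after values or sequences had been seen. Alternatives were other scalings (DESeq2 size factors, library size alone, mitochondrial genes removed), DESeq2, limma-voom, no or a stricter low-count filter, no robust estimation, a replicate block, a non-parenchymal covariate and each library left out.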

Additional observations from a re-analysis of the deposited data

Results flagged for a closer look

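In 46 groups of 4 libraries examined, 5 held a library far from the other 3 of its group. Chance alone flags about 1 in 20. AAV-Trib3 replicate 3 stood at 1806 CPM of Slc38a4, and the other 3 libraries of the group at 1015 to 1062 CPM. It also had the highest summed FPKM of the 60 genes, 834, and the highest share of all counts in them, 0.550%. AAV-GFP replicate 2 was low in Slc43a3, at 5.72 CPM against 7.13 to 7.29 CPM in the rest of its group. AAV-GFP replicate 1 was low in Slc7a5, at 0.587 CPM, which rests on 7 counts.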

How the results depend on the processing

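No transporter gene passed the adjusted threshold in edgeR, DESeq2 or limma-voom or with any library left out. Over all genes, DESeq2 called 7, and the fits with 1 library left out called between 0 and 3. Transporter genes with an unadjusted p under 0.05 and a positive log2 fold change numbered 2 without a low-count filter (Slc3a1 and Slc7a15, the latter on at most 3 counts in a library), and from 1 to 2 with 1 library left out. Those with a negative one numbered 1 in limma-voom (Slc43a3), and from 0 to 2 with 1 library left out. Slc3a1 kept an unadjusted p under 0.05 in all 8 fits with a library left out and all 10 other alternatives. The median log2 fold change of the tested members was −0.084 with library size alone, with which the median of all tested genes was 0.037. Small log2 fold changes turned sign: Slc38a10 to 0.055 and Slc3a2 to 0.077 with library size alone, and Slc3a2 to 0.0125 with limma-voom and 0.0155 with the non-parenchymal covariate. With 1 library left out, values ran from −0.53 to 0.18 for Slc38a2, −0.55 to 0.16 for Slc7a2, −0.11 to 0.11 for Slc38a10, −0.28 to 0.016 for Slc38a3, −0.13 to 0.13 for Slc3a2, −0.47 to 0.074 for Slc6a12, −0.34 to 0.057 for Slc6a13, −0.28 to 0.017 for Slc6a6, −0.15 to 0.18 for Slc38a4 and −0.029 to 0.73 for Slc1a5. The cause was not tested. Trib3 passed with DESeq2 (log2 fold change 4.20) and without AAV-Trib3 replicate 4 (4.42).

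Libraries with the same replicate number did not deviate together (correlations of −0.28 to −0.067 over genes). No pairing by number was thus visible, which does not show that the samples were unpaired. With the replicate block, 0 genes were called, as without it, Slc3a1 had a log2 fold change of 1.36 with an unadjusted p of 0.0113, and Slc3a2 stood at 0.0059. At this depth, 16 counted members with at most 18 counts in a library were not tested. The 95% interval of the log2 fold change spanned 2.56 units for Slc43a2 (5 to 33 counts in a library), 3.20 for Slc36a1 (36 to 335) and 1.22 for Slc38a6 (25 to 58).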
